A study of Mus musculus with 8 samples.

Results

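RNA levels of the transcription factor NRF2, its inhibitor and its target genes were examined in mouse embryonic stem cells in which METTL3, the enzyme that writes N6-methyladenosine (m6A) on RNA, can be degraded. The group held 10 genes of the 17597 genes listed in the deposited table: Nfe2l2, which encodes NRF2, Keap1, Nqo1, Cbr1, Cbr3, Hmox1, Gclc, Gclm, Txnrd1 and Srxn1. They were chosen by symbol as NRF2 and its known targets, and Cbr3 was picked with the authors' comparison of treated and untreated cells in view. The values of that comparison are not given here, and nothing below rests on them.

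The 8 libraries came from cells of a Cast x 129S background in which a TetOn promoter replaces that of endogenous Xist and METTL3 carries the FKBP12 F36V degron tag at its C terminus. The labels put the TetOn promoter on the 129S allele, whereas the study's text puts it on the Cast X chromosome in the line from which these clones were made. All 8 libraries were made without Dox. In 4 libraries the cells had received dTAG-13, the small molecule that recruits the tagged protein for degradation, for 26 h, and in the other 4 they had not. Both groups came from the same 2 clones, C3 and H5, each a single edited line, and each clone gave 2 replicates to either group. The cells grew on inactivated mouse fibroblast feeders with LIF and β-mercaptoethanol, a reducing agent, in both groups.

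NRF2 is held at a low level by KEAP1, which presents it to a CUL3 ubiquitin ligase. Oxidants and electrophiles modify KEAP1, NRF2 then escapes degradation, pairs with a small MAF protein and binds antioxidant response elements near its target genes. The targets supply glutathione, reduce thioredoxin, quinones and carbonyls, break down heme and export conjugates. Because NRF2 is controlled mainly as a protein, its mRNA level is not a measure of its activity.

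The deposited value used here is the authors' mean count, which averages the read counts of all libraries after division by size factors. It pools treated and untreated cells, both clones and all replicates in 1 number per gene, so no value per library, spread or test can be given, and neighbours in the order of levels cannot be told apart by replicate error. No difference between dTAG-13 and untreated cells is therefore reported for any of these genes. After scaling, the mean counts of all genes added up to 14573411, and transposable elements held 10.6% of the sum over all features. The 8 embryonic stem cell markers checked, among them Pou5f1 and Nanog, all lay above the median gene, with levels from 464 to 16142 mean counts per kb of exon. Of 10 fibroblast markers, 3 lay above the median gene (Vim, Fn1 and Sparc, which other cells also express), with levels from 423 to 806 per kb. Thy1 lay close to that median, at 38.7 per kb and a mean count of 116. Col1a1 and Col1a2 had mean counts of 19.8 and 13.8, and Col3a1, Dcn, Lum and Postn had mean counts of 8.38, 7.50, 1.45 and 0.768, so none of the 10 was at 0. The part of feeder RNA in the levels below was not tested.

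All 10 genes were expressed above the median gene of the table, both in mean count, where that median was 170.4, and per kb of exon, where it was 39.9. Their mean counts ran from 289.6 for Cbr3 to 3152 for Txnrd1, a 10.9-fold range, and corresponded to percentiles 57.2 to 94.2 of all genes. Against the 13590 genes whose mean count was 10 or more and whose median was 372.6, 8 of the 10 lay above the median, and the exceptions were Cbr3 and Srxn1. Per kb the median of such genes was 81.2, and 9 of the 10 lay above it, the exception being Gclm at 73.2. Together the 10 genes held 9475 mean counts, or 0.0650% of the total of all genes, and Txnrd1 alone held 33.3% of that sum. Levels between genes are compared below as the mean count per kb of the union of a gene's annotated exons, which is the length used unless another is named. Lengths came from GENCODE vM21, whereas the study took its gene annotation from the UCSC genome browser, so counted and measured exons can differ.

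**Figure D1:**
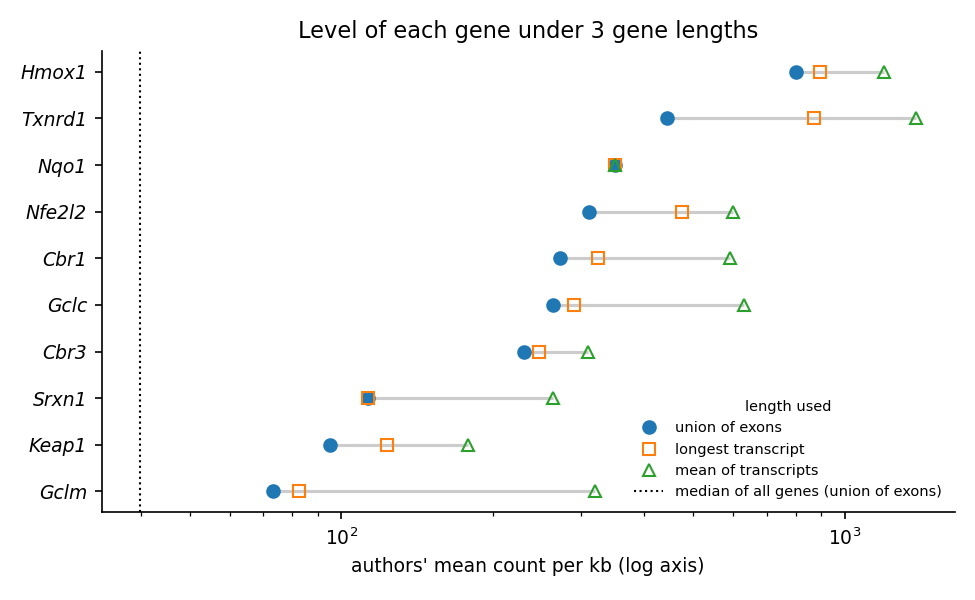
Authors' mean count per kb (log axis) of each of the 10 genes under 3 choices of gene length; circles, squares and triangles stand for the union of exons, the longest transcript and the mean transcript, grey lines join them, and the dotted line is the median of all genes under the union of exons. Hmox1 at 801 and Gclm at 73.2 are the ends of the order under the union of exons, and the level of Gclm moves 4.36-fold between lengths while that of Nqo1, which has 1 transcript, does not move.

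Sequences that bear on the group are shown first. Cbr1 and Cbr3 encode the carbonyl reductases of this group, and their reads have to be told apart for Cbr3 to have a level of its own. A stretch of 90 coding bases in exon 1 of each gene, around the longest run of bases that both share, is printed 5′ to 3′ on the plus strand of GRCm38 with the bases that differ between the genes in capitals. It lies at chr16:93608091-93608180 in Cbr1 and at chr16:93683450-93683539 in Cbr3, at coding positions 126 to 215 of both.

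Cbr1: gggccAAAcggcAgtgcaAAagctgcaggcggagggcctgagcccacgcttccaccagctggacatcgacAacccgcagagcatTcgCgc

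Cbr3: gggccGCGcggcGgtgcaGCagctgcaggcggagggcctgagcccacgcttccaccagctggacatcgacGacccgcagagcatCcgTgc

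Matches to the core of the antioxidant response element, TGACNNNGC, were sought on both strands of RefSeq promoter windows (GRCm38.p6) that run from 250 bases before to 50 bases after each annotated start. The 4 matches found in the group are printed with 10 bases on either side, along the strand of the gene, and the match is in capitals. In Gclm, Srxn1 and Txnrd1 the capitals are the reverse complement of the core, since the match was on the opposite strand.

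Nfe2l2: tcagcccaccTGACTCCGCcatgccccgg

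Gclm: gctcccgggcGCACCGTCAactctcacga

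Srxn1: gcagtgggcaGCTAGGTCAgagtgagaca

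Txnrd1: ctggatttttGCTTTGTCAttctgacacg

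In the pooled mean the regulator had a higher RNA level than its inhibitor. Nfe2l2 (chr2:75675513-75704641, minus strand) had a mean count of 1179 and a level of 311 per kb, the fourth of the 10, at percentile 84.0 of genes by level per kb. Keap1 (chr9:21229730-21239361, minus strand), the adaptor that targets NRF2 for ubiquitination, had a mean count of 445 and a level of 94.8 per kb, percentile 64.1. The level per kb of Nfe2l2 was 3.28 times that of Keap1, and the ratio lay between 3.28 and 3.87 under the 3 choices of length. Keap1 shares 510 exon bases (10.9% of its exon union) with Gm16754, an antisense gene that the table does not list. Whether the authors' counting used strand is uncertain, and without strand the reads of the pair cannot be told apart.

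Among the enzymes, Hmox1 (chr8:75093621-75100589, plus strand), the inducible heme oxygenase, had the highest level per kb, 801, with a mean count of 1402. It stood at percentile 93.9 of genes by level per kb. Nqo1 (chr8:107388225-107403206, minus strand), the quinone reductase often used as a reporter of NRF2 activity, had a mean count of 542 and a level of 349 per kb, the third of the group. Its mean count was under that of Gclc, yet its level per kb was above it, since its exon union of 1553 bases is shorter than that of any other member except Cbr3. Per kb of mean transcript this order was reversed: Nqo1 stayed at 349, place 6 of the 10, and Gclc stood at 631, place 3.

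The thioredoxin branch held both a high and a low member. Txnrd1 (chr10:82833951-82897712, plus strand), the cytosolic thioredoxin reductase, had the highest mean count, 3152, and a level of 445 per kb. It has 8 annotated transcripts with a mean length of 2273 bases against an exon union of 7086 bases, and per kb of mean transcript its level became 1387, above the 1197 of Hmox1. The order of the most abundant enzymes thus depends on the length taken. Srxn1 (chr2:152105516-152111376, plus strand), sulfiredoxin, which restores overoxidized peroxiredoxins, had a mean count of 318 and a level of 113 per kb. Its last exon made up 84.9% of its transcript.

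Glutamate cysteine ligase, the first enzyme of glutathione synthesis, has 2 subunits, and both genes are in the group. Gclc (chr9:77754535-77794485, plus strand), the catalytic subunit, had a mean count of 992 and a level of 263 per kb, and Gclm (chr3:122245557-122270732, plus strand), the modifier subunit, had a mean count of 460 and a level of 73.2 per kb, the lowest of the 10. The ratio of Gclc to Gclm was 2.15 in mean count and 3.60 per kb, but 1.98 per kb of mean transcript. Gclm has a last exon of 4505 bases, 80.6% of its transcript, and 7 annotated transcripts that average 1444 bases, so its level rests more on the choice of length than that of any other member. Gclm also shares 296 exon bases with Gm17494 on the opposite strand and 244 with the pseudogene Gm6061 on its own, neither of which the table lists.

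Cbr1 and Cbr3 lie in the same orientation on chromosome 16, Cbr1 at chr16:93605853-93610505 and Cbr3 at chr16:93683215-93690990, with 72709 bases between them. CBR1 and CBR3 reduce carbonyls with NADPH, and CBR1 acts on a wide range of substrates. Cbr1 had a mean count of 695 and Cbr3 one of 289.6, the lowest of the 10 and 2.40 times lower. Per kb the gap was smaller: Cbr1 stood at 272 and Cbr3 at 231, a ratio of 1.18. That ratio was 1.91 per kb of mean transcript and 2.27 when each mean count was divided by the length of the main coding transcript, 1237 bases for Cbr1 and 1170 for Cbr3. Cbr1 was the higher of the pair under every length tried, and by how much depends on how many of its 4 annotated transcripts are counted in its length. By level per kb Cbr3 reached percentile 79.4 of genes, against percentile 57.2 by mean count, so its low mean count goes with a short exon union of 1254 bases.

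**Figure D2:**
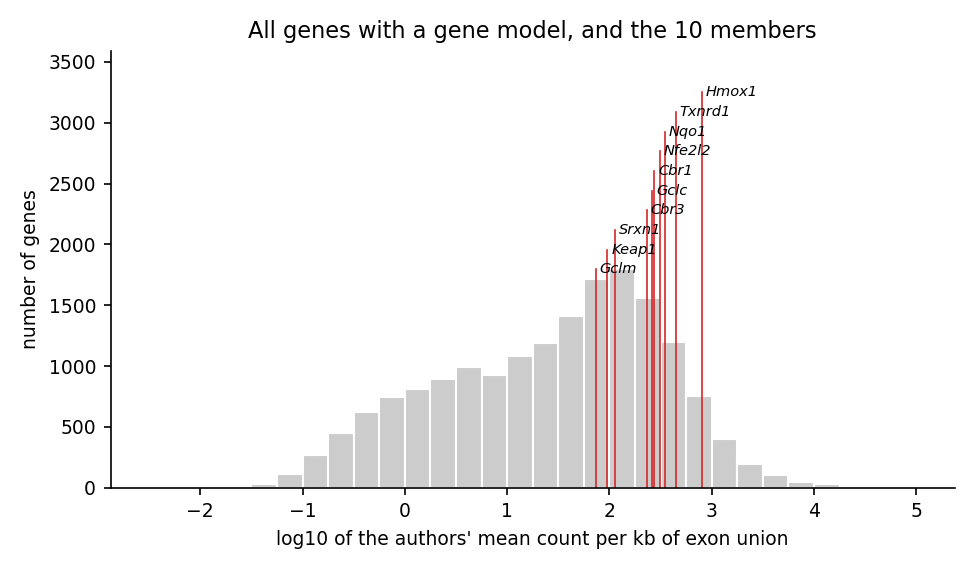
Number of genes (bars) by log10 of the authors' mean count per kb of exon union, over the 17378 genes with a gene model, with a vertical line at each of the 10 genes; line heights only separate the names. All 10 lines lie to the right of the median of genes, 39.9 per kb, and they span 73.2 to 801 per kb.

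Cbr1 and Cbr3 have coding sequences of 831 bases each, made of 3 exons in each gene. Aligned over 833 positions, 645 positions (77.4%) were identical, 188 differed, 4 of these as gaps, and the longest identical run was 50 bases. The likeness was uneven along the alignment. In windows of 81 bases, the length of 1 read of a pair, the number of differing positions had a median of 19 and ran from 4, in the first part of the coding sequence, to 32. No stretch of 81 bases of the Cbr1 or Cbr3 transcript occurred in an annotated transcript of another gene. In stretches of 40 bases, 11 of 1131 (0.973%) of Cbr3 occurred in Cbr1, and 123 of 1198 (10.3%) of Cbr1 occurred elsewhere, 112 of them in Gm5678. Gm5678 is a protein-coding gene model between Cbr1 and Cbr3, at chr16:93628097-93630451 on the same strand, and the table does not list it.

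**Figure D3:**
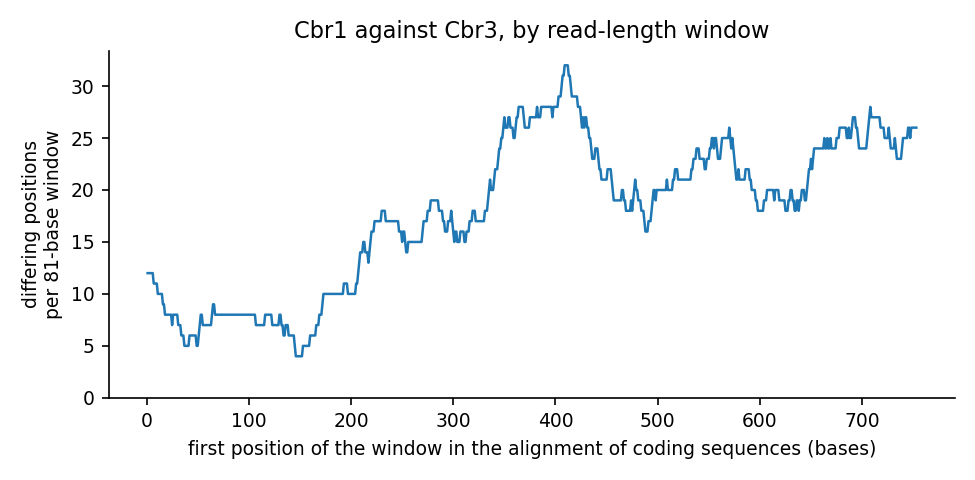
Number of differing positions between the Cbr1 and Cbr3 coding sequences (y axis) in each of 753 windows of 81 positions, against the first position of the window in their alignment (x axis, bases). The curve is lowest, at 4 differing positions, in windows that start at positions 146 to 152, which overlap the printed stretch and run past its end. It is highest at 32.

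Over the whole group, 9 of 10 genes had no 81-base stretch of their main transcript in an annotated transcript of another gene. The exception was Keap1, where 277 of 3534 stretches (7.84%) recurred in Gm16754, the antisense gene at its own locus. The authors kept reads placed at 1 position of the genome, and placement in the rest of the genome was not tested here.

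Of the 10 genes, 8 had a RefSeq promoter window, and Txnrd1 had 3 windows for alternative starts, which gave 10 windows in all. The core TGACNNNGC was found in windows of 4 genes, Nfe2l2, Gclm, Srxn1 and Txnrd1, while it was present in 12.4% of all 32851 promoter windows and in 14.0% of the 27025 genes with one. The match of Nfe2l2 (chr2:75704885-75704913 with its flanks) lay 240 to 232 bases before the start. That of Gclm (chr3:122245413-122245441) lay 134 to 126 bases before the start, and that of Txnrd1 (chr10:82859104-82859132) lay 92 to 84 bases before an alternative start inside the gene. The match of Srxn1 (chr2:152105542-152105570) lay 29 to 37 bases after the start, inside the first exon. The full core TGACTCAGC, a tighter form of the same motif, was in the window of no member and in 0.454% of all windows. In the windows of Cbr1, Cbr3, Keap1 and Nqo1 the letters of the core did not occur. These are descriptions of 300 bases around annotated starts, and elements farther away were not searched.

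**Figure D4:**
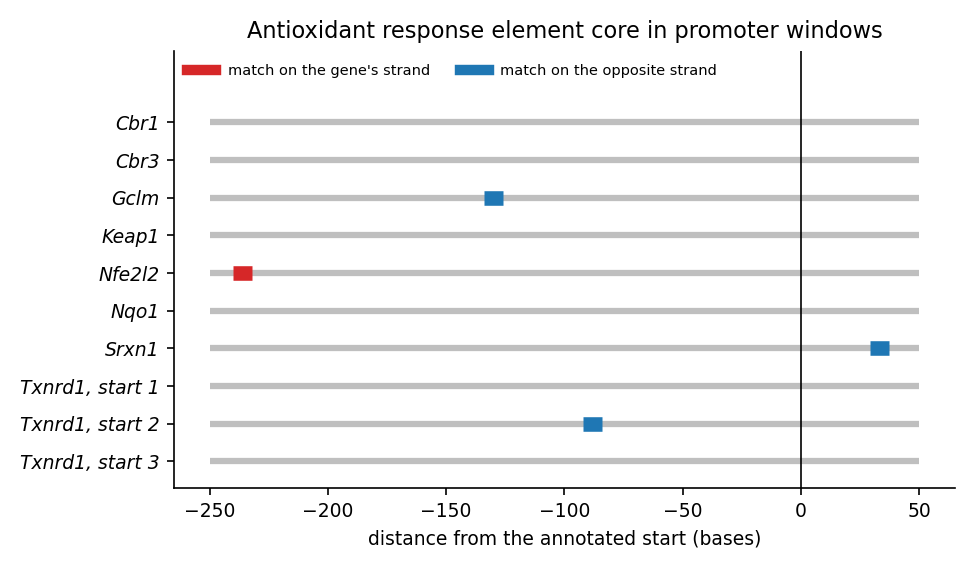
Promoter windows (grey bars) of 8 genes, with 3 starts for Txnrd1, by distance from the annotated start in bases; coloured blocks are matches to the antioxidant response element core on the gene's strand or the opposite one. There are 4 matches, 3 before the start and 1, that of Srxn1, after it.

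The main transcripts of the group mostly had few exons. Of the 10 genes, 8 had fewer exons than the median of 9 among genes whose mean count was 10 or more, from 2 exons in Srxn1 to 7 in Gclm, and the other 2 were Txnrd1 with 15 and Gclc with 16. In 5 of 10 the last exon was longer than the median of 1260 bases, and in 5 of 10 the GC content was above the median of 50.6%. The motif GGACT, 1 of the common forms of the sequence at which METTL3 methylates adenosine, was found at a median of 0.785 sites per kb of transcript in the group and 1.05 per kb over those genes. Main transcripts of the 10 held 0 to 6 sites each, and 6 of the 10 lay below the median of 1.05. Nfe2l2 had 6 sites, or 2.42 per kb, more per kb than 94% of the genes whose mean count was 10 or more. Cbr3 had 1 site, and Cbr1 and Hmox1 had none. These letters are no measure of methylation, which was not measured in these libraries.

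The wider pathway was described by 44 other genes in 6 roles, all of which the table lists. Their median level was 234.5 per kb, near the 267.7 of the 10 genes, but they were spread far more widely: 11 lay above Hmox1, 13 lay below Gclm, and 3 had a mean count under 10. In all, 36 of the 44 were above the median gene per kb.

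All 8 genes listed as partners and repressors of NRF2 lay above the median gene. The list also held Sqstm1 and the related factor Nfe2l1, which are strictly neither. The highest were Sqstm1, the autophagy receptor that binds KEAP1, at 1165 per kb, and Cul3, the scaffold of its ubiquitin ligase, at 655, both above Nfe2l2 and Keap1. The lowest were the small MAF genes Mafk at 49.0 and Maff at 41.3, whose products pair with NRF2 on DNA.

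Among 10 glutathione genes the levels ran from 3721 per kb for Gsta4, a glutathione transferase, and 3100 for Gpx4, which reduces lipid peroxides, down to 8.91 for Mgst1, a membrane-bound transferase, and 0.324 for Slc7a11. Slc7a11, the transporter subunit that imports cystine for glutathione synthesis and a much used NRF2 target, had a mean count of 4.51. Gclc and Gclm, which encode the subunits of glutamate cysteine ligase, had mean counts of 992 and 460.

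Of the 6 thioredoxin and peroxiredoxin genes, Prdx1, a peroxiredoxin, and Txn1, the cytosolic thioredoxin, were the highest at 3562 and 3018 per kb. Both were above Txnrd1, whose product keeps thioredoxin reduced. Catalase (Cat) stood at 223 and the mitochondrial reductase Txnrd2 at 28.6 per kb, under Txnrd1. The 6 genes listed under the supply of NADPH, the reductant of NQO1, CBR1 and TXNRD1, were all above the median gene. The highest were Taldo1 at 1310 and Tkt at 1170, both of the pentose phosphate pathway, whose products do not form NADPH themselves. Pgd, of the same pathway, stood at 367, and Me1, malic enzyme, was the lowest at 97.5.

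Among 5 iron and heme genes, Ftl1, the ferritin light chain, was the highest of all 44 at 13792 per kb, and Fth1, the heavy chain, stood at 894. The biliverdin reductase genes were lower, Blvrb at 120 and Blvra, whose product reduces the biliverdin made by heme oxygenase, at 25.0, against 801 for Hmox1. The 9 genes of detoxification and export had the lowest median of the 6 roles, 51.3 per kb, with 5 above the median gene. Akr1b8, an aldo-keto reductase, and Abcc4, a drug and conjugate exporter, were highest at 206 and 159. Cbr2, a carbonyl reductase, had a mean count of 1.03, and Osgin1, an oxidative stress response gene, had one of 0.174, the lowest that the table holds.

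**Figure D5:**
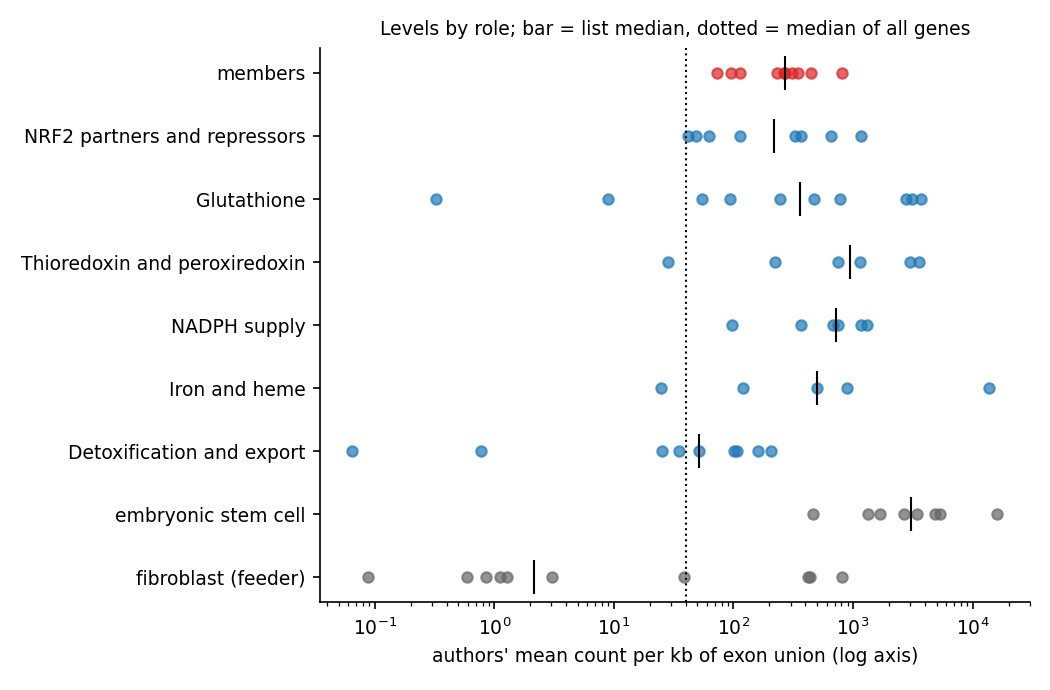
Authors' mean count per kb of exon union (log axis) of the 10 genes (red), of 44 other pathway genes by role (blue) and of cell type markers (grey); black bars are list medians and the dotted line is the median of all genes. The 10 genes lie within 73.2 to 801 per kb, whereas the glutathione genes run from 0.324 to 3721 and the detoxification genes have a median of 51.3.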

How the data were processed

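Total RNA from 8 libraries of mouse embryonic stem cells (4 treated with dTAG-13, 4 untreated) was analysed as deposited. The extraction text of the labels describes chromatin RNA, while the molecule label and the study's methods give total RNA. The authors removed ribosomal reads with bowtie2, aligned pairs of 81-base reads with STAR to N-masked mm10, which pools both alleles, kept unique alignments, removed duplicates with Picard and counted genes and transposable elements with TEtranscripts at default settings.

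The table deposited by the authors holds 1 signal column, which averages counts over the libraries after division by size factors and is termed the mean count. Its 5 other columns, with the authors' fold change, standard error, statistic, p-value and adjusted p from their comparison by DESeq2, were not used. The planned edgeR test needs counts per library and was not run. Depth per library was not analysed, so no interval or floor is given.

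The 10 genes and all lists were chosen with earlier results of these data known. All 10 are named, as are, of the other pathway genes, the 2 highest and the 2 lowest per kb in each role. Exon number, last exon, base composition, GGACT sites and overlapping genes were added after the data were seen. Lengths came from GENCODE vM21 (GRCm38, the build of mm10), where 16660 genes matched by symbol and 718 by a synonym, and 219 of 17597 had no single model. The study gives the UCSC genome browser as the source of its gene annotation. Whether an unlisted gene was part of that annotation was not tested. The main transcript was the one with the longest coding sequence. Copies were sought in annotated transcripts in place of the genome. Motif and window searches were tested on simulated sequences. Python 3.11.15, pandas 2.3.3, numpy 2.4.6, biopython 1.88 and matplotlib 3.10.9 were used.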

Additional observations from a re-analysis of the deposited data

How the results depend on the processing

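The median level of the 10 genes, 267.7 mean counts per kb of exon union, was 307 per kb of longest transcript and 470 per kb of mean transcript. The order of the 10 moved by at most 1 place with the former and by at most 3 with the latter. Their median percentile by mean count, 70.6, was 62.0 among genes whose mean count was 10 or more and 81.6 when genes were ranked per kb. Their share of the total, 0.0650% of genes, was 0.0582% with transposable elements in the denominator. The number of genes with a core match, 4, was 3 with bases before the start alone and 0 with TGACTCAGC. The share of stretches of their main transcripts with an exact copy in a transcript of another gene, 1.05% at 81 bases, was 2.32% at 40 bases, where 5 genes in place of 1 had any. No paired analysis was possible because the values used pool all libraries; for the same reason leaving out a replicate and the test between groups were not run. Lack of values per library is the main limit: neither replicate spread nor counting error can be set beside any level, and the scaling by size factors was the authors'.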
